A study of Mus musculus with 6 samples.

Results

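Neurons that lose their axon can die by the intrinsic, or mitochondrial, pathway of apoptosis, and 9 of its genes were followed after Ezh2-Y726D overexpression. They were chosen by name from the 32371 genes of the table, with earlier results of these data known, and all 9 passed the filter on low counts. They are the BH3-only genes Bbc3, Bcl2l11, Hrk and Pmaip1, the effector Bax, the anti-apoptotic genes Bcl2 and Bcl2l1, and Apaf1 and Casp9 of the apoptosome. RNA-Seq was done on 3 GFP and 3 Ezh2-Y726D libraries from adult C57BL/6J mice of 6 to 10 weeks and both sexes, as the study's methods give for its mice in general. All mice had an optic nerve crush (ONC) 2 weeks after intravitreal AAV2 and were sampled 3 days after it. AAV2-GFP served as the control for AAV2-Ezh2-Y726D, which carries a form of the histone methyltransferase Ezh2 with a change in its catalytic domain. Live cells positive for CD90.2, the product of Thy1, were sorted from dissociated retinas, and no source used here says how many mice went into a library or which promoter drove the vectors.

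In a healthy neuron, anti-apoptotic proteins such as Bcl-2 and Bcl-xL hold Bax in check at the mitochondrial membrane. BH3-only proteins bind these guardians or Bax itself, and Bax then opens the outer membrane so that cytochrome c escapes. Cytochrome c and Apaf1 form the apoptosome, which activates caspase-9. After ONC, loss of Bax is known to spare the cell bodies of retinal ganglion cells (RGCs), and the kinase DLK with Jun acts upstream of the BH3-only genes.

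The libraries were not pure RGCs by their transcripts. Levels are given as CPM, the read count of a gene relative to the scaled total of its library. All 12 RGC markers of a fixed list passed the filter, and their summed level was 499 to 513 CPM in GFP and 473 to 510 CPM after Ezh2-Y726D, with 2 higher and 2 lower in the test used below. Markers of rods (summed 5003 to 5137 CPM in GFP and 5578 to 5729 CPM after Ezh2-Y726D) and of Müller glia (6457 to 6751 and 6461 to 6732 CPM) were present as well. All 7 amacrine markers tested were higher after Ezh2-Y726D, and all 6 cone, all 8 activated phagocyte and all 7 T cell markers were lower. Of 7 bipolar markers 6 were lower and 1 higher, and their summed level was 1135 to 1145 CPM in GFP and 897 to 932 CPM after Ezh2-Y726D. Of 6 pericyte markers 5 were lower, with 213 to 231 CPM in GFP and 166 to 179 CPM after Ezh2-Y726D. These marker counts stand next to 13.6% of all genes tested called lower and 13.9% called higher. Total counts ran from 9333244 to 23782520, and the rRNA gene CT010467.1 took 50.9% and 52.2% of them in GFP replicates 2 and 3 against 2.55% to 16.1% in the other 4 libraries. Ezh2 itself was at 22.7 to 26.4 CPM in GFP and 65.2 to 65.6 CPM after Ezh2-Y726D, with vector and endogenous transcripts not told apart. In such bulk libraries fewer cells of a type cannot be told apart from less RNA per cell.

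The regions around the transcription starts of 8 of these 9 genes are rich in CpG. RefSeq windows on GRCm38.p6, each from 250 bases before to 50 bases after a start, were taken for these 8. They had 13 windows among 32851 in all. Pmaip1 was left out, because windows on its chromosome, 18, were not taken for the 9 genes. The 32851 windows were not limited in this way. In 12 of the 13 the number of CpG dinucleotides was above 7, the median of all windows, with a range of 1 to 46. The forkhead motif GTAAACA, searched on both strands, was in 2 of the 13 windows and in 3.65% of all windows. The cyclic AMP response core TGACGT was in 1 of the 13 and in 7.51% of all windows, and the AP-1 motif TGANTCA was in none of the 13 and in 7.81% of all windows. No motifs overlapped in the windows of these genes. A match of letters is a description and does not show that a factor binds there.

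Windows of Bcl2l11 and Bcl2 are printed because these genes were lower after Ezh2-Y726D. Pmaip1 was lower as well, but no window was taken for it. One of Bbc3 is printed because it holds the same forkhead letters as the Bcl2l11 window. The printed windows run 5′ to 3′ on the strand of the gene, with the motif in capitals. The Bcl2l11 window (plus strand, chr2:128125788-128126087) is its first of 2, with GTAAACA starting 227 bases before the start. The Bbc3 window (plus strand, chr7:16310011-16310310) is its second of 3, with the motif on the other strand and starting 167 bases before. The Bcl2 window (minus strand, chr1:106714241-106714540) has TGACGT starting 107 bases before.
Bcl2l11: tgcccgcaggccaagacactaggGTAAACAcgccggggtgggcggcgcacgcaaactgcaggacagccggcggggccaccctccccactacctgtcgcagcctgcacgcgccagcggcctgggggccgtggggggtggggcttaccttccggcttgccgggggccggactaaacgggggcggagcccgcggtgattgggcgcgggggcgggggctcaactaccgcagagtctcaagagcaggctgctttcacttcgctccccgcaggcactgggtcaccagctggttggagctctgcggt
Bbc3: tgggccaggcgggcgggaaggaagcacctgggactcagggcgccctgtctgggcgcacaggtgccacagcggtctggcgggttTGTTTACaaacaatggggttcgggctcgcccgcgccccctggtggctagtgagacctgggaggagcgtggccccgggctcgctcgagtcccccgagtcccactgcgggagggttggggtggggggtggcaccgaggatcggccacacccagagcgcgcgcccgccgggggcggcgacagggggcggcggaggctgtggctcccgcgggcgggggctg
Bcl2: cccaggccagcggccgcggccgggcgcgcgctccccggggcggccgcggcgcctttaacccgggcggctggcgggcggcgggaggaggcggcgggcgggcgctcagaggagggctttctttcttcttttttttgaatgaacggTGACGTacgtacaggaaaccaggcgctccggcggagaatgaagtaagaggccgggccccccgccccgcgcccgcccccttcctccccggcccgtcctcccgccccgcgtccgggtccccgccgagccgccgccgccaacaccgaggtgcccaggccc

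Levels of the genes were first set side by side per kilobase of annotated exon, as CPM per kilobase, since longer transcripts collect more reads. In GFP, Bcl2l1, which encodes Bcl-xL, was highest with 12.7 ± 0.327 CPM per kilobase (SD, n = 3 libraries). Bax followed with 7.74 ± 0.815 and Casp9 with 5.09 ± 0.298 CPM per kilobase. Bcl2l11 (3.88 ± 0.502), Apaf1 (3.76 ± 0.0694) and Bbc3 (3.08 ± 0.36) came next, and Pmaip1 (2.41 ± 0.478), Hrk (2.27 ± 0.301) and Bcl2 (1.86 ± 0.0257 CPM per kilobase) were lowest. Bcl2l1, Bax and Casp9 were separate from each other and from the rest in every GFP library. Among the neighbours below them, the ranges over the GFP libraries of Bcl2l11 and Apaf1, of Bbc3 and Pmaip1, and of Pmaip1 and Hrk overlapped, and those of Apaf1 and Bbc3 and of Hrk and Bcl2 did not. Within each GFP library Bbc3 was above Pmaip1. After Ezh2-Y726D the top of the order was the same, with Bcl2l1 at 12.9 ± 0.195, Bax at 7.70 ± 0.324 and Casp9 at 5.08 ± 0.122 CPM per kilobase (SD, n = 3 libraries). Bcl2l11 was at 2.81 ± 0.337 CPM per kilobase there, under Apaf1 at 3.73 ± 0.24 and next to Bbc3 at 2.71 ± 0.436. The lengths are the union of all annotated exons, so that a gene read mostly from a short isoform is understated on this scale.

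Of the 9 genes, 3 were lower after Ezh2-Y726D and none was higher. The 3 were the BH3-only genes Bcl2l11 and Pmaip1 and the anti-apoptotic gene Bcl2. Bax, Bcl2l1, Apaf1 and Casp9 had log2 fold changes between -0.032 and 0.015, and Bbc3 and Hrk had lower means in Ezh2-Y726D but did not pass the test. A call is an adjusted P under 0.05 in the quasi-likelihood test of edgeR, fitted to 18138 genes, and SE is the standard error. The test called 13.6% of all genes lower, 13.9% higher and 27.5% in either direction, so the 3 of 9 called (33.3%), all of them lower, are read against 13.6% lower and 27.5% in either direction, and with 9 genes nothing particular to them is drawn from it. The median log2 fold change was -0.20 over the 9 genes and 0.0019 over all genes tested. With 1 library left out, the median over the 9 ran from -0.26 (without GFP replicate 3) to -0.081 (without GFP replicate 1). The count moved with the tool and the libraries: DESeq2 called 1 of the 9, Bcl2l11, and so did edgeR without GFP replicate 1 or without Ezh2-Y726D replicate 2. DESeq2 called 20.9% of the 17434 genes to which it gave an adjusted P, and the other two fits called 20.7% and 22.1% of all genes tested in them. None of the 9 was higher at an unadjusted P under 0.05 or in DESeq2. None had a fold change over 1.5 with an adjusted P under 0.05, which 8.02% of all genes had, 2.52% higher and 5.5% lower.

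**Figure D1:**
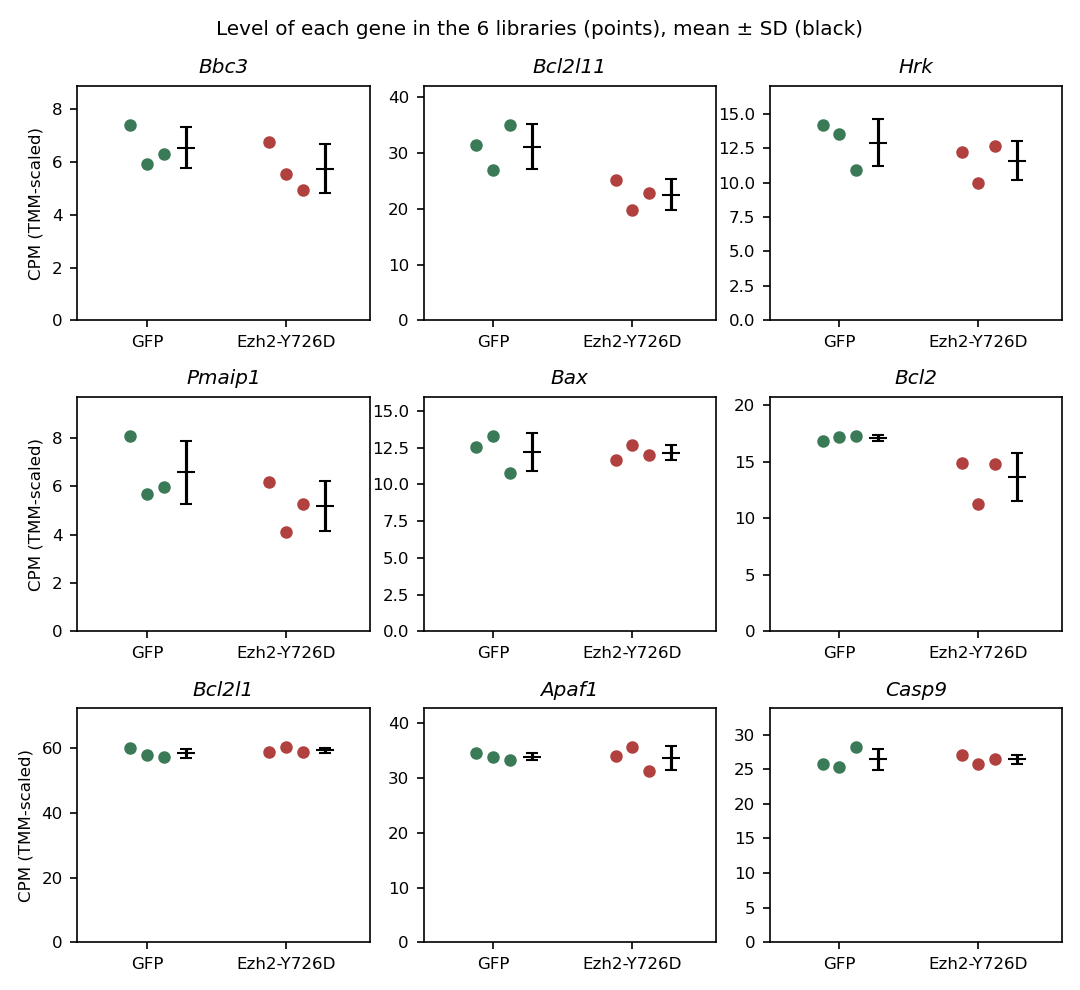
CPM of the TMM-scaled library (vertical axes from 0) for each of the 9 genes in the 3 GFP and 3 Ezh2-Y726D libraries (points, in the order of replicates 1 to 3), with the mean and SD of each group in black. The groups are apart for Bcl2l11 and Bcl2, both lower, and overlap for the other 7 genes. Of all genes tested, 38.6% were apart in either direction and 18.9% were apart and lower.

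Bcl2l11 (ENSMUSG00000027381, chromosome 2, 128126038 to 128162547) encodes Bim, a BH3-only protein that binds all anti-apoptotic members of the Bcl-2 family and can activate Bax. GFP replicates 1 to 3 held 31.5, 27.0 and 35.0 CPM, and Ezh2-Y726D replicates 1 to 3 held 25.1, 19.8 and 22.7 CPM. Every Ezh2-Y726D library lay below every GFP library, as was so for 18.9% of all genes tested (19.7% were apart in the other direction, 38.6% in either). Its log2 fold change was -0.45 (95% interval -0.62 to -0.29, SE 0.081, edgeR adjusted P = 6.69e-05), or 0.73 times the GFP level. It was called with each library left out in turn, with log2 fold changes of -0.54 to -0.38 and adjusted P of 4.05e-06 to 0.00238 in edgeR. In DESeq2 its adjusted P was 9.27e-05. These values rest on 209 to 897 counts a library.

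Pmaip1 (ENSMUSG00000024521, chromosome 18, 66458533 to 66465565) encodes Noxa, a p53-inducible BH3-only protein that mainly antagonizes Mcl-1. Levels of 8.07, 5.68 and 5.97 CPM were read for GFP replicates 1 to 3, against 6.16, 4.12 and 5.25 CPM for Ezh2-Y726D replicates 1 to 3. The groups overlap, since Ezh2-Y726D replicate 1 was above GFP replicates 2 and 3, and GFP replicate 1 stood above all others. The log2 fold change was -0.45 (95% interval -0.75 to -0.14, SE 0.15, edgeR adjusted P = 0.0256). Without GFP replicate 1 it was -0.15, with an adjusted P of 0.691 in edgeR. The call was also lost without Ezh2-Y726D replicate 2 (log2 fold change -0.32, adjusted P = 0.134) or replicate 3 (-0.44, adjusted P = 0.0567 in edgeR) and in DESeq2 (-0.40, adjusted P = 0.169). GFP replicates 2 and 3 held only 44 and 36 counts of this gene.

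The other BH3-only genes had smaller differences. Bbc3 (ENSMUSG00000002083, chromosome 7, 16308393 to 16318205) encodes Puma, the other main p53-inducible killer protein. Replicates 1 to 3 were at 7.40, 5.93 and 6.30 CPM with GFP, against 6.77, 5.54 and 4.95 CPM with Ezh2-Y726D. Ezh2-Y726D replicate 1 lay within the GFP range and replicates 2 and 3 below it. The log2 fold change was -0.26 (95% interval -0.54 to 0.024, SE 0.14, edgeR adjusted P = 0.181). Without Ezh2-Y726D replicate 1 Bbc3 passed, with a log2 fold change of -0.40 and an adjusted P of 0.0382 in edgeR, and without GFP replicate 1 its log2 fold change was -0.088.

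Hrk (ENSMUSG00000046607, chromosome 5, 118164648 to 118189478) encodes Harakiri, also called DP5, a BH3-only protein largely restricted to neurons that is induced by JNK signalling in injured neurons. Replicates 1 to 3 were at 14.2, 13.5 and 10.9 CPM with GFP, against 12.2, 9.95 and 12.6 CPM with Ezh2-Y726D. GFP replicate 3 lay among the Ezh2-Y726D libraries, so that the groups overlap. Its log2 fold change was -0.20 (95% interval -0.41 to 0.015, SE 0.10, edgeR adjusted P = 0.174). With 1 library left out it ran from -0.26 to -0.081, the latter without GFP replicate 1, and never passed.

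Bax (ENSMUSG00000003873, chromosome 7, 45461697 to 45466898), the pore-forming protein on which RGC death after ONC depends, did not differ beyond the spread of the libraries. Its levels were 12.5, 13.3 and 10.8 CPM in GFP and 11.7, 12.7 and 12.03 CPM after Ezh2-Y726D, and all Ezh2-Y726D libraries lay within the GFP range. The log2 fold change was -0.032 (95% interval -0.22 to 0.16, SE 0.093, edgeR adjusted P = 0.86). Of its exonic bases 12.2% overlap another gene, Gm45808, on the same strand, so that its count is uncertain, and how many reads fall there was not measured.

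Of the anti-apoptotic genes, Bcl2 was called lower and Bcl2l1 was not, and the difference between them was not tested. Bcl2 (ENSMUSG00000057329, chromosome 1, 106538178 to 106714274), the founding member of the family, was at 16.8, 17.2 and 17.2 CPM in GFP replicates 1, 2 and 3. In Ezh2-Y726D replicates 1, 2 and 3 it was at 14.9, 11.2 and 14.8 CPM, all below every GFP library. The coefficient of variation was 1.38% among the GFP libraries and 15.3% among the Ezh2-Y726D libraries, where replicate 2 was lowest. The log2 fold change was -0.30 (95% interval -0.50 to -0.10, SE 0.095, edgeR adjusted P = 0.0182). The call was lost without Ezh2-Y726D replicate 2 (log2 fold change -0.20, adjusted P = 0.123), without GFP replicate 1 (-0.32, adjusted P = 0.0748 in edgeR) and in DESeq2 (-0.32, adjusted P = 0.0554). Of its exonic bases 6.09% overlap D630008O14Rik on the opposite strand.

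Bcl2l1 (ENSMUSG00000007659, chromosome 2, 152780668 to 152831728) encodes Bcl-xL, the main survival protein of the family in adult RGCs. It was at 60.1, 57.9 and 57.2 CPM in GFP and at 58.9, 60.4 and 58.8 CPM after Ezh2-Y726D. The groups overlap within a coefficient of variation of 2.56% and 1.51%. With a log2 fold change of 0.012 (SE 0.05, edgeR adjusted P = 0.908) its 95% interval of -0.091 to 0.11 was the narrowest of the 9 genes. The gene has 9 annotated transcripts, which include the pro-apoptotic short form, and gene counts do not separate them.

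The apoptosome genes did not differ beyond the spread of the libraries either. Apaf1 (ENSMUSG00000019979, chromosome 10, 90989311 to 91082770), the scaffold that cytochrome c assembles into the apoptosome, was at 34.6, 33.9 and 33.3 CPM in GFP and at 34.0, 35.7 and 31.4 CPM after Ezh2-Y726D. The highest and the lowest library were both from the Ezh2-Y726D group. The log2 fold change was -0.025 (95% interval -0.15 to 0.10, SE 0.063, edgeR adjusted P = 0.828).

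Casp9 (ENSMUSG00000028914, chromosome 4, 141793612 to 141815976), the initiator caspase that Apaf1 activates, was at 25.8, 25.3 and 28.2 CPM in GFP and at 27.0, 25.7 and 26.5 CPM after Ezh2-Y726D. Each library with Ezh2-Y726D was within the GFP range. The log2 fold change was 0.015 (95% interval -0.12 to 0.15, SE 0.065, edgeR adjusted P = 0.908).

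The likeness of Bcl2l11 to other genes was read from log2 CPM over the 6 libraries, as it had the smallest adjusted P of the 9. Among 5800 genes of similar level outside all lists, Myb (Pearson's r = 0.995), Cemip2 (0.993) and Qsox1 (0.992) were most like it, and 205 had r over 0.9. With 6 libraries in 2 groups, and r chosen as the highest of many, this is a description only.

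Ratios within a library do not depend on how libraries are scaled. The ratio of Bcl2l11 to Bcl2l1 read counts in replicates 1 to 3 was 0.524, 0.465 and 0.612 with GFP, against 0.427, 0.327 and 0.387 with Ezh2-Y726D. Each Ezh2-Y726D library was below each GFP library, and the means of the log2 ratios differed by -0.49 (SD 0.20 in GFP and 0.19 in Ezh2-Y726D, n = 3 each). The ratio of Bcl2 to Bcl2l1 also had no overlap, with 0.280, 0.296 and 0.301 in GFP and 0.253, 0.186 and 0.251 after Ezh2-Y726D.

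The ratio of Bax to Bcl2l1 was 0.208, 0.229 and 0.188 in GFP and 0.198, 0.210 and 0.205 after Ezh2-Y726D, so that the second group lay inside the first. Bax to Bcl2 was 0.745, 0.774 and 0.625 in GFP and 0.785, 1.13 and 0.814 after Ezh2-Y726D. Here all Ezh2-Y726D libraries were above the GFP libraries, with replicate 2, the library lowest in Bcl2, farthest from them. As 3 libraries against 3 cannot give a 2-sided exact P under 0.1, these ratios are given without a test. With Bcl2l1 at a log2 fold change of 0.012 and Bax at -0.032, the ratios that lay apart largely restate the levels of Bcl2l11 and Bcl2. How many other gene pairs lie apart was not computed.

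**Figure D2:**
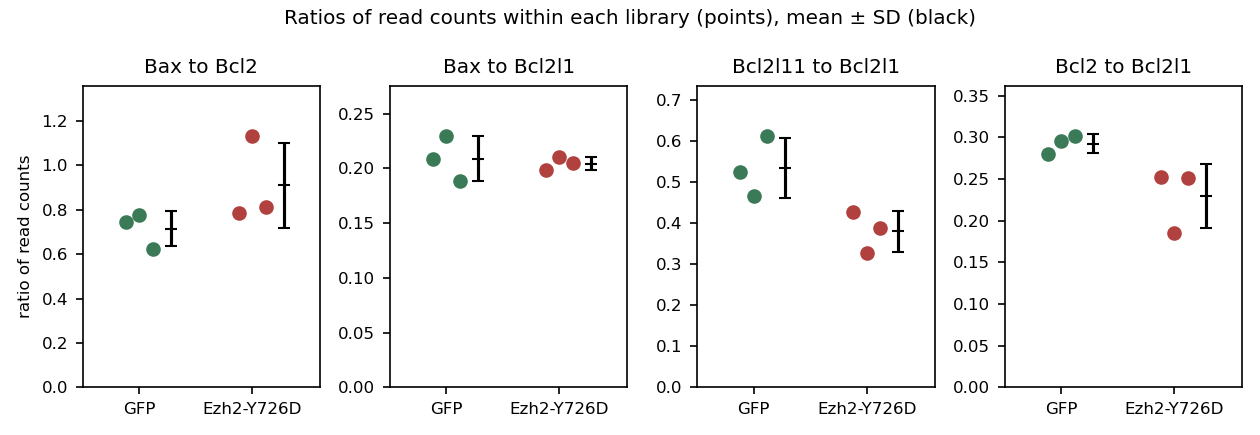
Ratios of raw read counts of gene pairs within each of the 6 libraries (points), with the mean and SD of each group in black and vertical axes from 0. Bcl2l11 to Bcl2l1 and Bcl2 to Bcl2l1 are lower in each Ezh2-Y726D library than in each GFP library, Bax to Bcl2 is higher, and Bax to Bcl2l1 overlaps.

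The scaling of the libraries set the level against which these differences were read. TMM, RLE factors and library totals without CT010467.1 put the median gene at 0.0019, -0.00078 and -0.018 on the log2 scale and called the same 3 genes. When libraries were scaled by the summed counts of the RGC markers, Bcl2l11 (-0.40) and Pmaip1 (-0.38) passed and Bcl2 (-0.25, adjusted P = 0.0543 in edgeR) did not. With library totals that include the rRNA gene the median of all genes was 0.49 and that of the 9 genes 0.31, and edgeR called 65 genes in all and none of the 9, also at an unadjusted P under 0.05. The fitted value of Bcl2l11 was then 0.042, that of Pmaip1 0.071 and that of Bcl2 0.19, while Bcl2l1, Casp9, Apaf1 and Bax were at 0.51, 0.51, 0.48 and 0.47. In each of these scalings 7 of the 9 genes, Bcl2l1 and Casp9 being the exceptions, were below the median of all genes. A change of scale shifts all genes by nearly the same amount. That this count stays the same was therefore fixed in advance and is no separate check.

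**Figure D3:**
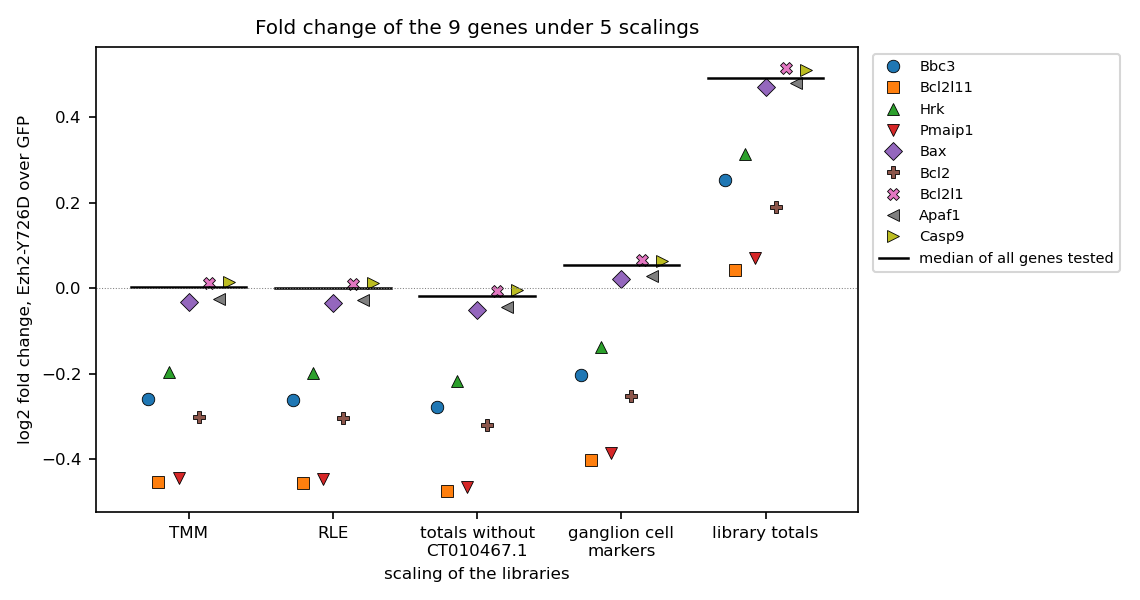
Log2 fold change of Ezh2-Y726D over GFP (vertical axis) for the 9 genes (symbols) under 5 ways of scaling the libraries (horizontal axis), with the median of all genes tested as a black line. A change of scale shifts all genes nearly alike, so the genes keep their distances from the line, which rises to 0.49 with library totals.

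Beyond the 9 genes, a list of 25 further genes of the intrinsic pathway was counted, of which 24 were tested. In edgeR 9 of them were lower and 1 higher after Ezh2-Y726D at an adjusted P under 0.05, next to the 13.6% and 13.9% of all genes, and their median log2 fold change was -0.068. Birc3, an inhibitor of apoptosis proteins induced by NF-κB, had a log2 fold change of -0.82 (SE 0.0856, edgeR adjusted P = 1.25e-08). Bak1, the effector that can act in place of Bax, was at 18.3, 19.0 and 19.6 CPM in GFP and 13.2, 13.3 and 12.8 CPM after Ezh2-Y726D, a log2 fold change of -0.52 (SE 0.0795, edgeR adjusted P = 8.61e-06). Exons of Bak1 overlap Ggnbp1 on the opposite strand over 25.5% of their bases. As the strand setting of the counting is not given, its count is uncertain. Bcl2a1d and Bcl2a1b, anti-apoptotic genes of leukocytes with near-identical copies, were at -0.93 and -0.91, and their counts are uncertain as well.

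Further genes of this list were picked with their values in view. Mcl1, the anti-apoptotic partner of Noxa, was at 173 to 183 CPM in GFP and 153 to 158 CPM after Ezh2-Y726D (-0.18). Bcl2l2, which encodes Bcl-w and is abundant in neurons, was the gene called higher, with 66.2 to 70.6 CPM in GFP, 79.5 to 82.9 CPM after Ezh2-Y726D and a log2 fold change of 0.26 (adjusted P = 1.11e-04 in edgeR). Its exons overlap Gm20521 on the same strand over 13.3% of their bases, so that its count is uncertain. By role, those called lower were 3 of 4 anti-apoptotic genes (1 was higher), 2 of 4 caspases and 1 of 5 proteins released from mitochondria. Also lower were 1 of 3 BH3-only genes tested, 1 of 2 pore-forming effectors and 1 of 4 inhibitors of apoptosis. The 2 genes of the caspase-activated DNase did not pass. Each stands next to 13.6% of all genes lower and 13.9% higher.

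Of 14 genes upstream of the BH3-only genes, 6 were higher, 3 were lower and 5 did not pass. Of 7 kinases of the DLK and JNK cascade 5 were higher, none was lower and 2 did not pass in edgeR, next to 13.9% of all genes higher and 13.6% lower. Mapk10, the neuronal JNK3, rose from 69.5 to 78.3 CPM in GFP to 98.2 to 98.9 CPM after Ezh2-Y726D (log2 fold change 0.40, adjusted P = 1.14e-07 in edgeR). Mapk9 (0.25) and Map3k12, which encodes DLK (0.16, adjusted P = 0.0458 in edgeR), were also higher. Exons of Map3k12 overlap other genes on the opposite strand over 19.3% of their bases. Jun, the JNK target that drives axon injury responses, had a log2 fold change of 0.24 (adjusted P = 0.00273 in edgeR). Of the 7 transcription factors, Jun was the 1 called higher, 3 were lower and 3 did not pass, against the same 13.9% and 13.6% of all genes.

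Ddit3, which encodes the stress factor CHOP, was lower, with a log2 fold change of -0.26 (adjusted P = 0.00112 in edgeR). Trp53, which encodes p53, was at 17.2, 12.9 and 14.3 CPM in GFP and 11.4 to 12.2 CPM after Ezh2-Y726D, a log2 fold change of -0.40 (adjusted P = 0.00186 in edgeR). Its GFP libraries were all above its Ezh2-Y726D libraries. Foxo1 and Foxo3, forkhead factors known to induce Bcl2l11 and singled out here after the motif was seen, were at -0.033 and 0.089 and did not pass. Of the 14 upstream genes, DESeq2 called 3 higher and 3 lower, next to its 20.9% of genes in either direction. Without GFP replicate 1, edgeR called 7 higher and 1 lower, next to 20.7% of all genes in either direction.

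Of 10 p53 targets other than Bbc3, Pmaip1 and Bax, 3 were lower, none was higher and 7 did not pass in edgeR, with a median log2 fold change of -0.15. Of all genes tested, 13.6% were lower and 27.5% were called in either direction. Those lower were Ccng1 (-0.28, adjusted P = 3.04e-05), Cdkn1a, the cell cycle inhibitor p21 (-0.51, adjusted P = 3.27e-04), and Trp53inp1 (-0.19, adjusted P = 0.00552, all in edgeR). In the extrinsic pathway, which starts at death receptors, 5 of 11 genes were lower, none was higher and 6 did not pass, next to the same 13.6% of all genes lower and 27.5% in either direction, with a median of -0.33. Tnfsf10, the death ligand TRAIL, had a log2 fold change of -1.20 (adjusted P = 7.75e-10 in edgeR), and Casp8, the initiator caspase of this pathway, fell from 14.9 to 17.3 CPM to 8.19 to 8.71 CPM (-0.995, adjusted P = 1.44e-09 in edgeR). Cflar, an inhibitor of Casp8, was at -0.29. No gene of either list was higher at an unadjusted P under 0.05 or in DESeq2.

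**Figure D4:**
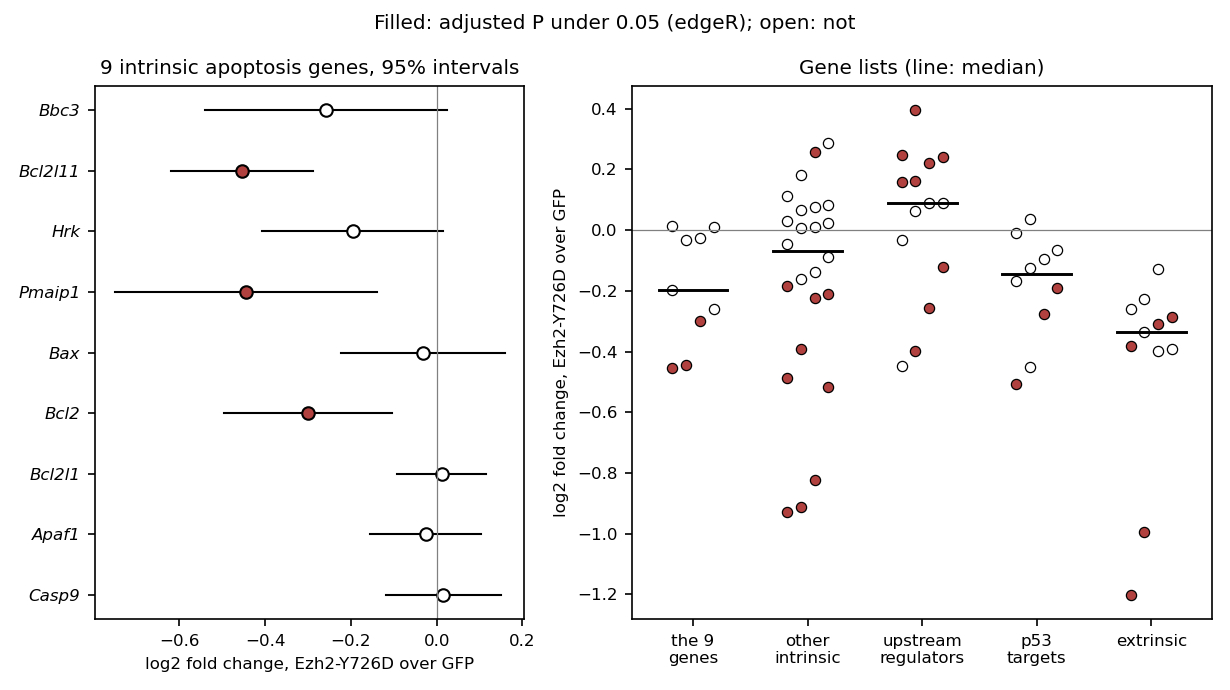
Left, log2 fold change of Ezh2-Y726D over GFP with its 95% interval for the 9 genes. Right, log2 fold changes of the genes tested in 5 lists, with the median of each list as a line; filled points had an adjusted P under 0.05 in edgeR and open points did not.

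Markers of other cell types also differed between the groups. The summed level of 8 activated phagocyte markers was 285 to 334 CPM in GFP and 82.0 to 87.2 CPM after Ezh2-Y726D, and all 8 were lower. That of 7 T cell markers was 111 to 115 CPM in GFP and 62.5 to 68.5 CPM after Ezh2-Y726D. T cells carry CD90.2, and leukocytes are known to express Bcl2l11, Bcl2, Casp8 and the Bcl2a1 genes. Of 8 microglia markers 6 were lower and 1 higher, next to 13.6% and 13.9% of all genes tested. Their summed level was 752 to 842 CPM in GFP and 488 to 572 CPM after Ezh2-Y726D. Amacrine markers, 8 in all, summed to 1201 to 1341 CPM in GFP and 1919 to 1994 CPM after Ezh2-Y726D, and the 7 tested were higher. The part of any of these cells in the levels of the apoptosis and upstream genes, those called higher among them, was not tested.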

How the data were processed

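RNA-Seq libraries of CD90.2-sorted retinal cells (TruSeq Stranded Total RNA Kit) were made from 3 GFP and 3 Ezh2-Y726D samples. The authors deposited whole-number read counts per gene, not normalized, and each column was assigned by its name. The submitters' processing notes name STAR 2.7.0d and GRCm38. The counting tool, annotation and strand setting are not given in the sources used here. Symbols for 32325 of 32371 identifiers came from a gene name table, and coordinates, exon lengths and overlaps from GENCODE vM21 (GRCm38), which may not be the annotation the authors used. CPM values are those of the TMM-scaled library. Groups were compared by quasi-likelihood in edgeR 4.0.16 under R 4.3.3 after filterByExpr (10 counts, total 15), with Benjamini-Hochberg adjustment over 18138 genes. Standard errors come from the log2 fold change and its F statistic, and 95% intervals use the moderated degrees of freedom. The procedure was tested on simulated data. The labels do not say that the libraries of a group came from separate mice, so P values measure the spread between libraries, which may be technical. No library was a copy of another, with a chi-square per degree of freedom of 1.49 to 3.03 within groups.

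Alternatives were RLE factors, library totals with and without CT010467.1, the summed counts of RGC markers, DESeq2 1.42.0, no filter, 10 counts in every library, a replicate block, leaving out each library, and removal of length or GC trends (lowess span 0.3). Leaving out GFP replicates 2 and 3 together was added after the data were seen. The 9 genes and all lists were chosen with earlier results of these data known. Named from the other lists were the 3 genes of smallest adjusted P, those with a fold change over 1.5 at an adjusted P under 0.05, Jun, Ddit3, Trp53 and Map3k12. Bcl2l2, Mcl1, Foxo1 and Foxo3 were added with their values known. Some genes of the lists are counted but not reported by name here. Promoter windows are from RefSeq (GRCm38.p6), and those on chromosome 18 were left out for the 9 genes.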

Additional observations from a re-analysis of the deposited data

How the results depend on the processing

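Bcl2l11 was called lower by edgeR or DESeq2 under all alternatives except library totals and a fold change over 1.5 as a further condition. With library totals edgeR called 0 of the 9 genes, and 0 genes in either direction of the 4 other lists, where 1 upstream regulator had an unadjusted P under 0.05. The log2 fold changes were then 0.25 for Bbc3, 0.042 for Bcl2l11, 0.31 for Hrk, 0.071 for Pmaip1, 0.47 for Bax, 0.19 for Bcl2 and 0.48 for Apaf1, relative to 0.49 for the median gene. DESeq2 called 1 of the 9, which was lower, and 3 upstream regulators higher. A fold change over 1.5 in addition left 0 of the 9 in edgeR, next to 3 at an unadjusted P under 0.05. With 1 library left out, 1 to 4 of the 9 were called, 1 to 4 of them lower and 0 higher. The fewest were found without GFP replicate 1 or Ezh2-Y726D replicate 2, where Bcl2l11 alone was called. In the other lists, 6 to 7 intrinsic genes were then called lower and 1 to 2 higher, 1 to 4 upstream regulators lower and 4 to 7 higher, 3 to 4 p53 targets lower and 4 to 6 extrinsic genes lower. Genes near no change turned sign in single fits, without a call. These were Bcl2l1 (-0.0078) and Casp9 (-0.0052) with totals without CT010467.1, Bax (0.021) and Apaf1 (0.028) with RGC markers as the scale, Bax (0.023) with the length trend removed and Bcl2l1 (-0.018) without GFP replicates 2 and 3. With 1 library left out the values ran from -0.0094 to 0.044 for Casp9, -0.00081 to 0.041 for Bcl2l1 and -0.066 to 0.026 for Apaf1. Without GFP replicates 2 and 3, Bcl2l11 (-0.47) and Pmaip1 (-0.62) passed and Bcl2 (adjusted P = 0.0705 in edgeR) did not, with the lone GFP library assumed to vary like the others. Removal of the GC trend called Bbc3 as well (-0.35, adjusted P = 0.0372 in edgeR). The causes were not tested. A replicate block called the same 3 genes, with log2 fold changes of -0.43, -0.36 and -0.29 for Bcl2l11, Pmaip1 and Bcl2 (adjusted P = 9.86e-06, 0.0382 and 0.0123 in edgeR). Deviations of libraries with the same number correlated across genes at 0.072, 0.034 and 0.024, each highest for its own number, which is too weak to take them as pairs. Pmaip1 and Bbc3 had the fewest counts, 36 to 46 in GFP replicates 2 and 3, and without both libraries their SE was 0.154 and 0.151, next to 0.149 and 0.138 with them.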
